A study of Homo sapiens with 12 samples.

Results

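MHC class I molecules carry peptides from inside the cell to its surface, where cytotoxic T cells read them. Proteasomes cut proteins into peptides, the TAP transporter brings the peptides into the endoplasmic reticulum, and tapasin helps to load them onto a heavy chain paired with beta-2-microglobulin. The genes of this route are known to be induced together by interferon-gamma and to be driven in many cell types by the transactivator NLRC5.

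The genes described here are 9 of the 58735 gene IDs in the count tables. HLA-B, HLA-C and HLA-E encode heavy chains, B2M encodes the light chain, TAP1 and TAP2 encode both subunits of the transporter, TAPBP encodes tapasin, and PSMB8 and PSMB9 encode catalytic subunits of the immunoproteasome. They were chosen by name, with knowledge that they differed between the genotypes in the non-directional libraries described next, so their values in that comparison are given as a description without a test. Other genes of the route, and the directional libraries, were not used for the choice, although a directional fall of TAP1 was already known and gives no independent support. The Ensembl IDs of the 9 genes are ENSG00000234745 (HLA-B), ENSG00000204525 (HLA-C), ENSG00000204592 (HLA-E), ENSG00000166710 (B2M), ENSG00000168394 (TAP1), ENSG00000204267 (TAP2), ENSG00000231925 (TAPBP), ENSG00000204264 (PSMB8) and ENSG00000240065 (PSMB9).

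RNA was sequenced from HAP1 cells, a near-haploid human line labelled as chronic myelogenous leukemia, as wild type (WT) and as a SETDB1 knockout (KO) derivative. SETDB1 is a histone methyltransferase that places methyl groups on lysine 9 of histone H3 and is known for silencing repeats and genes. Both genotypes were grown in the same medium with no further treatment given in the labels, and whether the knockout is a single clone is not given in the sources used here. Each genotype had 3 libraries from a non-directional kit, which does not record the strand of the RNA, and 3 from a directional kit, which does. These are 12 libraries in 4 groups. The comparison asks how loss of SETDB1 changes gene expression.

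The non-directional libraries held 8921959 to 10199215 gene counts and the directional ones 532021 to 676691. Levels are given as CPM, the count of a gene scaled to a common total of gene counts per library. SETDB1 itself had 651, 543 and 519 reads in the non-directional WT libraries and 118, 106 and 118 in the KO libraries, a log2 fold change of -2.39 (SE 0.079). It lies on chromosome 1 (150926263 to 150964744), within a lowered stretch described below whose tested genes had a median of -0.47. The part of that stretch in the fall of SETDB1 was not tested. Between the KO libraries of the non-directional kit the chi-square per degree of freedom over genes was 0.956 to 0.991, so they agree within sampling noise, whereas the WT pairs gave 1.03 to 2.00. The KO libraries were kept as 3 samples as labelled, and nothing in the labels beyond a biological replicate number says that they came from separate cultures, so p-values measure the spread between these libraries only. Markers of the labelled leukemia were mostly absent: of 10 myeloid and progenitor genes 4 had no read in any non-directional library, CD33, MPO and SPI1 among them, while KIT and ANPEP alone were expressed above the filter on low counts. ANPEP rose in KO (log2 fold change 1.44, SE 0.094, edgeR adjusted p = 9.8e-24), while KIT was not called (-0.19, SE 0.092, edgeR adjusted p = 0.075). Of the markers of other cell types, the epithelial marker EPCAM rose (3.40, SE 0.11, edgeR adjusted p = 1.25e-42), and CDH1, also epithelial, had 8, 12 and 11 reads in WT and 3, 8 and 1 in KO and was not tested. The summed level of the 12 markers of other cell types was 20.8 to 22.2 CPM in WT and 57.4 to 60.4 CPM in KO, with 5 of them at 0 reads; EPCAM alone went from 3.74 ± 0.98 to 39.7 ± 1.1 CPM (SD, n = 3 each), so that nearly the whole shift of the sum lay in this gene. The part of these shifts in the results below was not tested.

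The start regions of these genes are shown first, as a description, and their part in the changes was not tested. Of the 9 genes, 8 had an entry among the RefSeq start windows on GRCh38.p14, which run from 250 bases before a start to 50 bases after it, and HLA-E had none. Each sequence below is the 250 bases before the annotated start, 5′ to 3′ on the strand of the gene. Capitals mark matches, on either strand, to 4 kinds of letters: an interferon-response-like motif (as GAAAGTGAAA in TAPBP, with bases 5 and 6 free), a kB-like motif (as GGGGATTCCC in HLA-B or GGGACTTTCC in TAP1, with bases 4 and 5 free), a CCAAT box (CCAAT) and the core of a cAMP-response element (TGACG). A GAS-like motif (as TTCTCGGAA in PSMB8, with bases 4 to 6 free) was also searched and had no match in these 5 stretches. The windows of TAP2, PSMB8 and PSMB9, and a second window of TAP1, were searched too but are not printed. Of all these letters, the PSMB9 window held only CCAAT and TGACG, and the first of the PSMB8 windows held only TGACG. Matches may overlap each other.
HLA-B, chr6:31357180-31357429, minus strand: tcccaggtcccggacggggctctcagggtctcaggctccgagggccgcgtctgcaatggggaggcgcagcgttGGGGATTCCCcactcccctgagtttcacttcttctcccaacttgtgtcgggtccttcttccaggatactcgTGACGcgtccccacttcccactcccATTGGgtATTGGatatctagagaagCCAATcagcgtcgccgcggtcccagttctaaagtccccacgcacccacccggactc
HLA-C, chr6:31272093-31272342, minus strand: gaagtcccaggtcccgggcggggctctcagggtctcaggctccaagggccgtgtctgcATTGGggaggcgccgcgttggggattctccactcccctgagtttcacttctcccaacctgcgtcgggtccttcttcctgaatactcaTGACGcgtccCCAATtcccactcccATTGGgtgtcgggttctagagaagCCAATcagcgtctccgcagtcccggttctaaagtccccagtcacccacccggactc
B2M, chr15:44711267-44711516, plus strand: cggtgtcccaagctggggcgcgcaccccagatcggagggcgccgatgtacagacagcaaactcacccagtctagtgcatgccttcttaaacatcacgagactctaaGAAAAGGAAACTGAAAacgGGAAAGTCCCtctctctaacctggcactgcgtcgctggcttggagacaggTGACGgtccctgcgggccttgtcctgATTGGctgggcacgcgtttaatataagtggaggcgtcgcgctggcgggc
TAP1, chr6:32853705-32853954, minus strand: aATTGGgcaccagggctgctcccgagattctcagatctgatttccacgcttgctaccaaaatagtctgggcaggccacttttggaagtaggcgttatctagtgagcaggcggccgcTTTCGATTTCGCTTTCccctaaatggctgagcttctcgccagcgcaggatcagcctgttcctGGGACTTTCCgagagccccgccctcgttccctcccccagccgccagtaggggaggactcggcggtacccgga
TAPBP, chr6:33314079-33314328, minus strand: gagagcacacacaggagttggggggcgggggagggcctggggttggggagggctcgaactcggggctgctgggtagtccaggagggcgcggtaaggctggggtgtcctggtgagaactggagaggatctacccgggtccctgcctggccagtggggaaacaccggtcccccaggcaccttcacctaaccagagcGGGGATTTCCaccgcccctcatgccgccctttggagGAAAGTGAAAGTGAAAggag

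Letters of the interferon-response-like motif were found in the windows of 5 of the 8 matched genes (B2M, PSMB8, TAP1, TAP2 and TAPBP), and in 3.57% of all 35116 windows. The kB-like letters were found in 4 (B2M, HLA-B, TAP1 and TAPBP), against 3.88% of all windows. HLA-B held the kB-like GGGGATTCCC, while HLA-C, whose stretch is much alike, held no match. In TAP1, B2M and TAPBP the interferon-response-like matches come as overlapping pairs. CCAAT boxes were found in 5 and TGACG in 6 of the 8, both common letters, with 34.6% and 24.6% of all windows. PSMB8 and TAP1 have a second annotated start each, and the GAS-like letters (7.66% of all windows) were found only in those second windows. The interferon-response-like match of PSMB8 also lay in its second window, across the start (bases -4 to 5). The counts of genes take any window of a gene, while the shares are per window, so they are not like measures. A match describes these letters only and is no evidence of binding.

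All 9 genes were lower in KO in the non-directional libraries, and the KO libraries did not overlap the WT libraries for any of them, as for 27% of all genes tested in that direction. Their summed level was 1150 to 1178 CPM in WT and 569 to 585 CPM in KO. All 9 passed the filter on low counts and an edgeR adjusted p of 0.05, beside 51.5% of the 13778 genes tested, 25.9% lower and 25.5% higher. A log2 fold change of -1 or below was found for 4 of them (HLA-B, TAP1, PSMB8 and PSMB9), beside 4.18% of all genes tested. Since this comparison chose the genes, nothing is read from these counts. With 1 fit over all 12 libraries the calls over all genes were 2400 higher and 4170 lower, in place of 3517 and 3572, and all 9 genes were still called lower. The median log2 fold change was -0.91 over the 9 genes and -0.0012 over all genes tested. In bulk RNA, fewer cells that express a gene and less RNA per cell cannot be told apart.

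**Figure D1:**
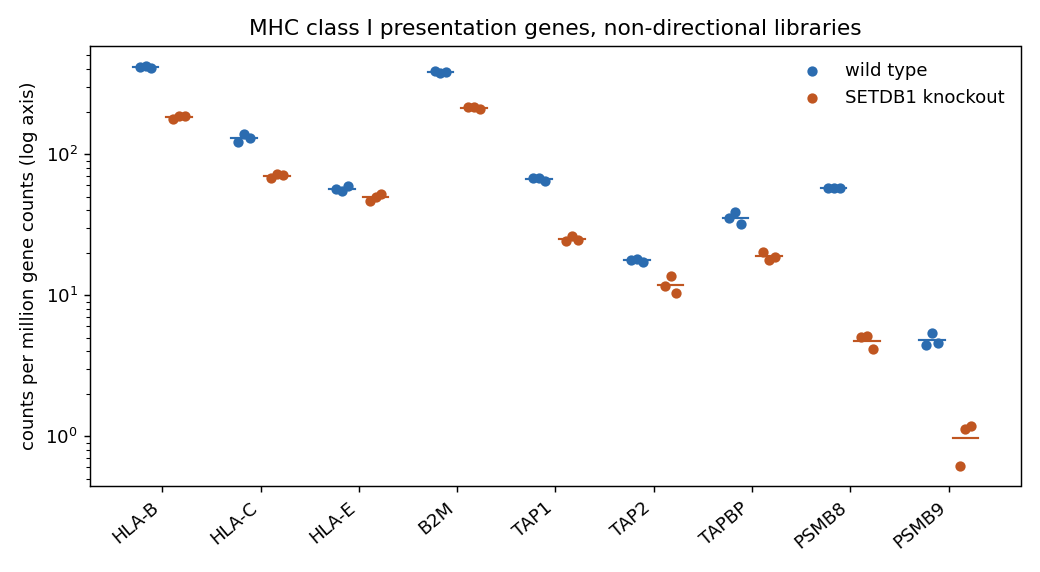
Level of each gene in each non-directional library, in CPM on a log axis; points are libraries (3 per genotype) and lines are group means. The KO points lie below the WT points for every gene, with the widest gap at PSMB8 (57.1 against 4.75 CPM on average) and the narrowest at HLA-E (56.9 against 49.5 CPM).

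The immunoproteasome subunits differed most. PSMB8, which takes the place of the constitutive subunit PSMB5, had 57.1, 57.1 and 57.3 CPM in WT and 5.01, 5.10 and 4.13 CPM in KO. The WT libraries were almost equal and every KO library lay far below them, for a fitted 12.1-fold lower level (log2 fold change -3.59, SE 0.095). PSMB9, which takes the place of PSMB6, was weakly expressed, with 45, 48 and 43 reads in WT and 6, 11 and 12 in KO. Its level was 4.79 ± 0.52 CPM in WT and 0.973 ± 0.31 in KO (SD, n = 3 each), with a log2 fold change of -2.28 (SE 0.26) that is the least precise of the 9.

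The transporter subunits were unequal. TAP1 had 68.1, 67.8 and 64.2 CPM in WT and 24.0, 26.4 and 24.6 CPM in KO (log2 fold change -1.42, SE 0.063). TAP2 had 17.8, 17.9 and 17.1 CPM in WT and 11.6, 13.7 and 10.3 CPM in KO (-0.58, SE 0.10). Both sets of libraries stayed apart, and the KO values of TAP2 spread more than its WT values. Scaled by the exon length of each gene, TAP1 was 5.03 ± 0.049 times the level of TAP2 in WT and 2.83 ± 0.30 times in KO (SD, n = 3 each). TAPBP had 35.4, 38.7 and 32.0 CPM in WT and 20.3, 17.9 and 18.5 CPM in KO (-0.91, SE 0.080), so tapasin mRNA was lower in each KO library than in each WT library.

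Among the heavy chains, the classical HLA-B and HLA-C differed more than HLA-E, which presents a narrow set of peptides to natural killer cell receptors. HLA-B had 417, 422 and 405 CPM in WT and 178, 186 and 185 CPM in KO, 2.28-fold lower (log2 fold change -1.19, SE 0.031). HLA-C had 122, 139 and 129.5 CPM in WT and 67.7, 71.9 and 70.7 CPM in KO (-0.90, SE 0.046). HLA-E had 57.0, 54.7 and 59.1 CPM in WT and 46.8, 49.4 and 52.5 CPM in KO (-0.21, SE 0.057). The highest KO library of HLA-E (52.5 CPM) lay just under its lowest WT library (54.7 CPM). B2M, the light chain shared by all class I molecules, had 389, 376 and 382 CPM in WT and 215, 214 and 208 CPM in KO (-0.85, SE 0.031), with little spread in either group.

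The order of the levels was nearly kept. In CPM per kilobase of annotated exon, HLA-B was highest in WT (136 ± 2.8), followed by B2M (62.9 ± 1.1) and HLA-C (52.0 ± 3.4; SD, n = 3 each). HLA-E (19.1 ± 0.73) and PSMB8 (19.1 ± 0.039) overlapped in WT and could not be ordered. TAP1 (13.9 ± 0.46), TAPBP (6.99 ± 0.66), TAP2 (2.76 ± 0.069) and PSMB9 (1.56 ± 0.17) followed without overlap. In KO the first 4 genes kept these places, while PSMB8 went from rank 5 to rank 8, at 1.58 ± 0.18, where it overlapped TAP2 (1.86 ± 0.26; SD, n = 3 each). Of the counts in these 9 genes, PSMB8 took 4.90% ± 0.069 in WT and 0.824% ± 0.091 in KO, and HLA-E 4.88% ± 0.25 and 8.59% ± 0.47 (SD, n = 3 each).

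**Figure D2:**
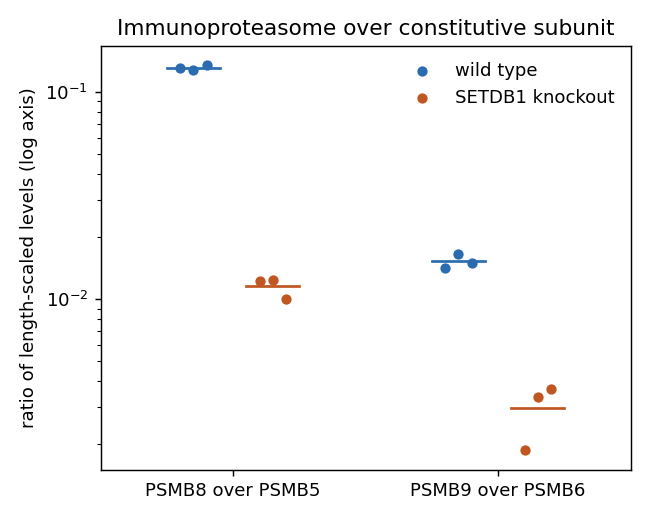
Ratio of the length-scaled level of each immunoproteasome subunit to that of its constitutive counterpart in each non-directional library, on a log axis; points are libraries and lines are means of 3. PSMB8 over PSMB5 lay at 0.128 to 0.135 in WT and at most 0.0124 in KO, and PSMB9 over PSMB6 at 0.0142 to 0.0165 and 0.00186 to 0.00369.

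The constitutive counterparts were much the more abundant in both genotypes. PSMB8 stood at 0.131 ± 0.0035 of PSMB5 in WT and at 0.0116 ± 0.0013 in KO, and PSMB9 at 0.0152 ± 0.0012 of PSMB6 and 0.00296 ± 0.00097 (SD, n = 3 each). Of 14 genes of the constitutive 20S proteasome, all tested, 1 was called higher, 4 lower and 9 neither, with a median log2 fold change of -0.011, beside 25.5% higher and 25.9% lower over all genes tested. PSMB4 fell most (-0.39, SE 0.031, edgeR adjusted p = 1.9e-19). It lies on chromosome 1, 151399534 to 151401944, within a stretch (146052566 to 248919946) whose 560 tested genes had a median of -0.47, with 80.2% called lower. The bounds of this stretch, and of those on chromosomes 4 and 9 given below, were set with earlier results of these data known. Their medians and shares are therefore descriptions only. PSMA7 fell by 0.27 on the log2 scale (SE 0.031, edgeR adjusted p = 3.8e-12). PSMB5 had -0.095 (SE 0.032, edgeR adjusted p = 0.0090), while PSMB1 had -0.078 (SE 0.033, edgeR adjusted p = 0.038) and PSMB7 had 0.083 (SE 0.032, edgeR adjusted p = 0.025), a call that was lost under 7 of 11 alternatives. PSMB6 did not pass (0.056, SE 0.038, edgeR adjusted p = 0.21). PSMB10, the remaining immunoproteasome catalytic subunit, had 2 to 8 reads per library and was not tested.

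The directional tables offered a second look at the same genes, once the strand they count had been settled. The 9 genes had 33236 reads in total in the 3 non-directional WT libraries, against 227 from the 3 directional ones, 0.683 per 100, although both kits list 10106592 to 12842195 reads per library. For all genes the value was 6.39 per 100. PSMB8-AS1, annotated on the strand opposite PSMB8 and TAP1, went the other way, with 43 non-directional and 807 directional reads over the WT libraries. The directional count of a gene is therefore given as reads of the opposite strand, and a gene annotated opposite to one of the 9 collects that gene's own reads where their exons overlap.

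Partners outside the 9 genes exist for HLA-B and for PSMB8 and TAP1, and in both cases their directional reads fell in KO. PSMB8 and PSMB9 also share 139 exon bases on opposite strands. The pseudogene AL671883.2 (ENSG00000271581, chromosome 6, 31356647 to 31357637, plus strand) shares 542 exon bases with HLA-B, at the start of that gene. It had 771, 817 and 643 directional reads in WT and 334, 334 and 333 in KO. The log2 fold change was -1.10 with an SE of 0.061 (adjusted p by edgeR = 3.7e-29), beside -1.19 for HLA-B in the non-directional libraries. The lincRNA PSMB8-AS1 (ENSG00000204261, chromosome 6, 32844086 to 32846495, plus strand) shares 618 exon bases with PSMB8 and 456 with TAP1, and 174 on the same strand with PSMB9. It had 267, 301 and 239 directional reads in WT and 69, 62 and 63 in KO. The log2 fold change was -2.00 with an SE of 0.11 (adjusted p by edgeR = 5.3e-30), beside -3.59 for PSMB8 and -1.42 for TAP1 in the non-directional libraries. How its reads divide between PSMB8 and TAP1 cannot be told from these tables. Among 4745 genes with a directional test 16.2% were called, 7.67% higher and 8.54% lower. A call with a log2 fold change of -1 or below was found for 1.79%, both partners among them. The partners collect reads of HLA-B, PSMB8 and TAP1, which were chosen as genes that differed between the same genotypes. Sample titles do not say whether the kits used separate RNA. The partner calls are therefore a description and give no independent support.

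**Figure D3:**
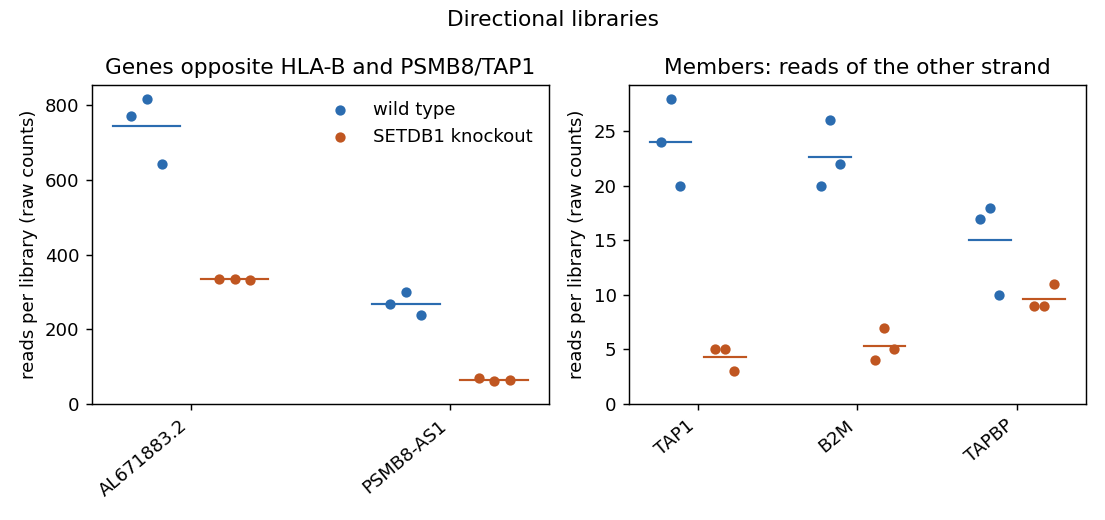
Raw reads per directional library for both genes annotated opposite to HLA-B and to PSMB8 and TAP1 (left), and for the 3 of the 9 genes that passed the filter (right, reads of the strand opposite to the gene); points are libraries and lines are means of 3. WT and KO are apart for AL671883.2, PSMB8-AS1, TAP1 and B2M and overlap for TAPBP, which had 10 to 18 reads in WT and 9 to 11 in KO.

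Reads of the strand opposite to the genes themselves were few, and 3 of the 9 genes passed the filter. TAP1 had 24, 28 and 20 such reads in WT and 5, 5 and 3 in KO (log2 fold change -2.38, SE 0.37, edgeR adjusted p = 1.5e-07). B2M had 20, 26 and 22 in WT and 4, 7 and 5 in KO (-2.01, SE 0.36, edgeR adjusted p = 5.4e-06), with no annotated exon opposite to it. TAP1 and B2M passed the filter through their WT libraries alone, as no KO library of either gene reached 10 reads. The filter thereby favoured a fall in KO. Without it TAP1 and B2M were still called (edgeR adjusted p = 3.4e-08 and 3.6e-06). TAPBP, with 17, 18 and 10 against 9, 9 and 11, did not pass (-0.57, SE 0.34, edgeR adjusted p = 0.28), and its 95% interval of -1.24 to 0.10 leaves a fall as large as that of its non-directional reads within reach. HLA-B, HLA-C, HLA-E, TAP2 and PSMB8 had 0 to 11 opposite-strand reads per library and PSMB9 had none, where 3 reads correspond to 4.43 to 5.64 CPM. These genes did not pass the filter and were not tested. HLA-B had 11, 8 and 4 reads in WT and 7, 7 and 4 in KO, and HLA-C 1, 3 and 3 against 2, 0 and 2. HLA-E had 2, 1 and 3 against 1, 0 and 1, TAP2 0, 1 and 0 against 2, 3 and 0, and PSMB8 2, 2 and 1 against 0, 0 and 0. No difference is read from them at this depth. Per 100 non-directional WT reads, opposite-strand reads numbered 3.78 for TAP1, 4.47 for TAPBP and 0.623 for B2M, against 0.195 for HLA-B and 0.189 for HLA-C.

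The exon overlaps also bear on the non-directional values, since reads in bases shared by genes can be set aside as ambiguous. Overlap with any other gene covered 32.3% of the annotated exon bases of TAP2, 20.6% of PSMB8, 18.9% of HLA-B, 9.49% of TAP1, 5.66% of PSMB9 and 1.40% of HLA-C, and none of HLA-E, B2M or TAPBP. The length-scaled levels above divide by all exon bases, so those of genes with overlap, TAP2 most, can be too low. The ratios of TAP1 to TAP2 can therefore be too high, and the order of the levels is approximate. Ambiguous reads were 8.37 to 8.41% of the reads listed in each non-directional library. HLA-B, HLA-C and other class I heavy chain genes also resemble each other closely, so part of their reads can be lost or shared between them. HLA-B has 17.8% of its exon bases under AL671883.2, which itself had 0 to 4 reads in the non-directional tables.

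The rest of the class I route was tested in the non-directional libraries with a list of 30 further genes. Of the 24 that passed the filter, 11 fell, 2 rose and 11 were not called, with a median log2 fold change of -0.13, beside 25.9% lower and 25.5% higher over all genes tested. HLA-G, a non-classical heavy chain, fell from 10 to 13 reads per library in WT to 2 to 8 in KO (-1.05, SE 0.42, edgeR adjusted p = 0.028). It passed the filter through its WT libraries alone. HLA-F had at most 5 reads in any library. PSME1, a subunit of the PA28 activator that caps the proteasome, fell by 0.56 on the log2 scale (SE 0.064, edgeR adjusted p = 3.2e-12), while its partner PSME2 did not pass (-0.12, SE 0.065, edgeR adjusted p = 0.11). ERAP1, which trims peptides in the endoplasmic reticulum, fell by 0.48 (SE 0.086, edgeR adjusted p = 1.2e-06). The stress ligand gene MICA fell by 0.49 (SE 0.079, edgeR adjusted p = 1.5e-07).

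Of the listed folding factors of the endoplasmic reticulum, CALR fell by 0.20 on the log2 scale (SE 0.024, edgeR adjusted p = 3.2e-11), PDIA3 by 0.14 (SE 0.028, edgeR adjusted p = 2.8e-05) and HSPA5 by 0.14 (SE 0.024, edgeR adjusted p = 6.3e-07), while CANX was not called (-0.015, SE 0.023, edgeR adjusted p = 0.62). The class I-like MR1, which presents vitamin B metabolites, had 18 reads in each WT library and 0, 1 and 1 in KO (-4.58, SE 0.58, edgeR adjusted p = 9.7e-11). MR1 passed the filter through its WT libraries alone, and lies in the lowered part of chromosome 1 described above, at 181033425 to 181061938. The genes that rose were FCGRT, the heavy chain of the neonatal Fc receptor, with 11, 20 and 7 reads in WT and 66, 99 and 91 in KO (2.67, SE 0.22, edgeR adjusted p = 2.8e-18), and SEC61B, a channel subunit (0.58, SE 0.043, edgeR adjusted p = 9.4e-21). SEC61B lies on chromosome 9 (99222064 to 99230615) within a stretch (72351425 to 117415070) whose 165 tested genes had a median of 0.41. TAPBPL, a relative of tapasin, had 1 to 4 reads per library.

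**Figure D4:**
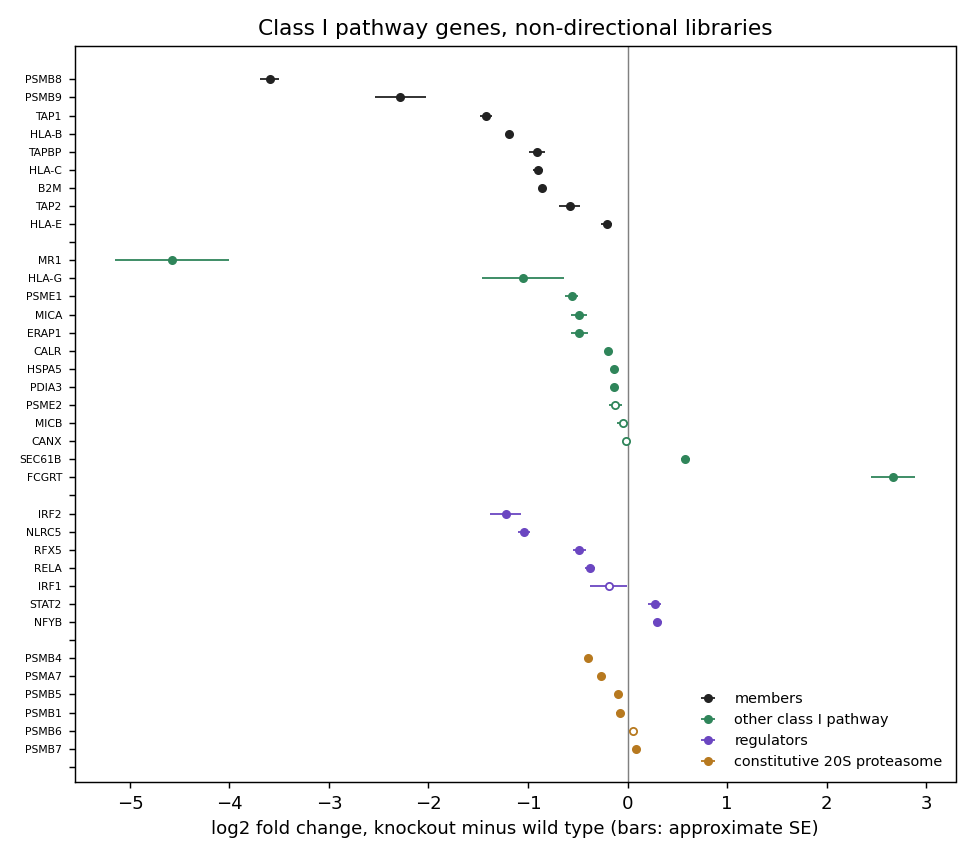
Log2 fold change (KO minus WT) of the genes of 4 groups that the text names, in the non-directional libraries, with bars for the approximate SE and filled points for an edgeR adjusted p under 0.05. The 9 genes that were chosen on this comparison (black) all lie below 0, the plotted genes of the rest of the route and of the regulators lie on both sides, and those of the constitutive proteasome lie between -0.39 and 0.083.

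Of 25 regulators, 23 were tested, 8 fell, 3 rose and 12 were not called, with a median of -0.10, beside 51.5% called over all genes tested (25.9% lower and 25.5% higher). NLRC5 went from 60.8 ± 3.3 to 29.6 ± 1.2 CPM (SD, n = 3 each), or -1.04 on the log2 scale (SE 0.063, edgeR adjusted p = 7.4e-26), with 565 to 591 reads in WT and 278 to 313 in KO. IRF2, an interferon regulatory factor, had 108, 76 and 82 reads in WT and 39, 44 and 36 in KO (-1.23, SE 0.16, edgeR adjusted p = 1.3e-10). It lies at the end of chromosome 4, at 184387713 to 184474580, where the 26 tested genes of a stretch (183099293 to 189963204) had a median of -0.70. RFX5, a subunit of the complex that binds the X box of MHC promoters, fell by 0.48 on the log2 scale (SE 0.063, edgeR adjusted p = 3.5e-10) and lies in the lowered part of chromosome 1, at 151340640 to 151347357. RELA, the p65 subunit of NF-kB, fell by 0.38 (SE 0.053, edgeR adjusted p = 3.7e-09).

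STAT2 rose (0.27, SE 0.067, edgeR adjusted p = 0.00037), as did the CCAAT-binding subunit NFYB (0.30, SE 0.043, edgeR adjusted p = 6.1e-09). IRF1, an interferon-gamma response factor, was low at 4.33 ± 0.71 and 3.80 ± 0.26 CPM (SD, n = 3 each) and was not called (-0.19, SE 0.19, edgeR adjusted p = 0.42). IRF8 had 10, 7 and 9 reads in WT and none in KO, and did not pass the filter. The MHC class II genes, which CIITA drives, were close to absent. The 11 listed summed to 3.43 to 4.15 CPM in WT and 1.02 to 1.28 CPM in KO, and 4 had no read. HLA-DOB was the single one tested (-1.34, SE 0.38, edgeR adjusted p = 0.0019), and it passed the filter through its WT libraries alone. Class I pseudogenes summed to 6.70 to 8.18 CPM in WT and 5.82 to 7.47 in KO, and neither of the 2 tested was called.

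Of the 9 genes, 8 lie in the MHC on chromosome 6, from HLA-E (30489467 to 30494205, plus strand) past HLA-C (31268749 to 31272130, minus strand), HLA-B (31269491 to 31357188, minus strand), TAP2 (32821833 to 32838780, minus strand), PSMB8 (32840717 to 32844703, minus strand), PSMB9 (32844136 to 32859585, plus strand) and TAP1 (32845209 to 32853978, minus strand) to TAPBP (33299694 to 33314387, minus strand). B2M lies on chromosome 15 (44711487 to 44718877, plus strand), all on GRCh38 with GENCODE 29. The 71 other tested genes between HLA-E and TAPBP had a median log2 fold change of -0.034, with 11 called higher (15.5%) and 21 lower (29.6%), beside 26.8% higher and 25.8% lower over the 620 tested genes of the rest of chromosome 6. The difference between these shares was not tested. The largest falls among those others, singled out after their values were seen, were those of the MHC non-coding gene HCP5 (-5.96, SE 0.18, edgeR adjusted p = 1.4e-45) and of PSMB8-AS1 (-4.25, SE 0.61, edgeR adjusted p = 7.3e-09). PSMB8-AS1 had 13, 14 and 16 reads in the WT libraries and 0 to 1 per KO library. It shares exon bases with PSMB8 and TAP1, and this kit does not record the strand. Whether its fall is separate from theirs was not tested.

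**Figure D5:**
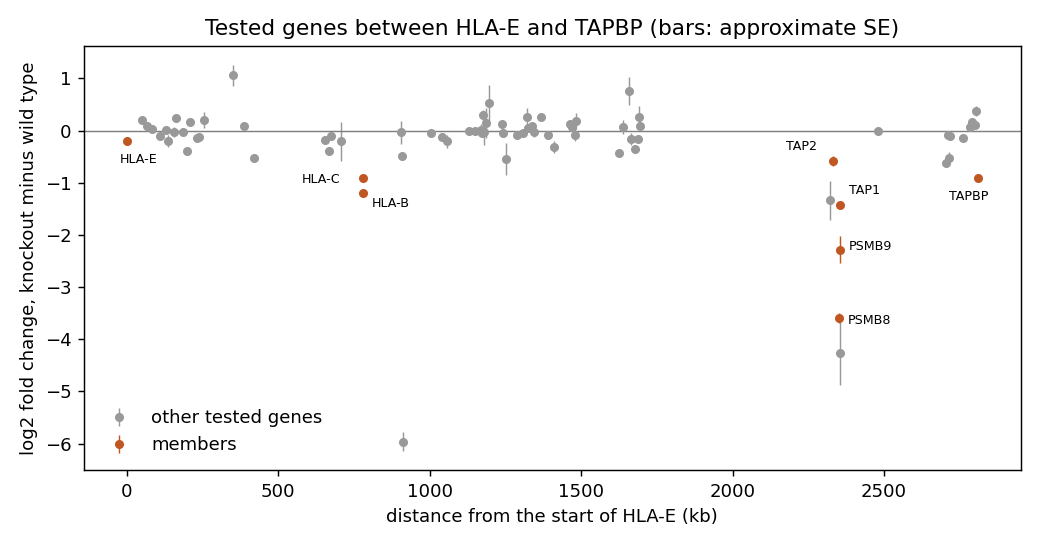
Log2 fold change (KO minus WT) of each tested gene between HLA-E and TAPBP against its distance from the start of HLA-E in kb, with bars for the approximate SE. The 8 members of the region (orange) lie at or below -0.21, while most of the 71 other genes (grey) lie near 0, with a median of -0.034.

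Direct neighbours were mixed. Of the 20 protein coding genes that are the nearest tested ones beside the 9, 4 were called higher, 8 lower and 8 neither, with a median of -0.026, beside 25.5% higher and 25.9% lower over all genes tested. Before the TAP and PSMB cluster lay HLA-DOB, lower as given above, and PBX2, which was not called (0.095, SE 0.046, edgeR adjusted p = 0.077). After it lay the bromodomain gene BRD2, which was not called (-0.0063, SE 0.032, edgeR adjusted p = 0.89), and the retinoid receptor gene RXRB, which fell by 0.61 (SE 0.068, edgeR adjusted p = 1.2e-12). Beside TAPBP, the chaperone gene DAXX was not called (-0.0023, SE 0.042, edgeR adjusted p = 0.97), nor was PFDN6 (0.11, SE 0.051, edgeR adjusted p = 0.070). RGL2 rose by 0.38 (SE 0.090, edgeR adjusted p = 0.00024) and ZBTB22 fell by 0.30 (SE 0.11, edgeR adjusted p = 0.020). Of the neighbours of HLA-B and HLA-C, TCF19 fell by 0.39 (SE 0.049, edgeR adjusted p = 7.9e-11), POU5F1 by 0.11 (SE 0.026, edgeR adjusted p = 0.00030) and MICA as given above, and MICB was not called (-0.045, SE 0.060, edgeR adjusted p = 0.55). Beside HLA-E, GNL1 rose by 0.21 (SE 0.044, edgeR adjusted p = 2.5e-05), and TRIM26 (-0.11), TRIM39 (0.073) and PRR3 (0.085) were not called. Beside B2M, SPG11 fell by 0.30 and TRIM69 by 0.26, and EIF3J rose by 0.099 and SORD by 0.13, with edgeR adjusted p-values of 1.5e-05, 0.0051, 0.011 and 0.011.

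The profile of the 9 genes over the 6 non-directional libraries, averaged after centring log2 CPM, was matched most closely by PTCHD1, VSNL1, CNN2P12, TUBA1A and HIST2H3D, at Euclidean distances of 0.0898, 0.0909, 0.0983, 0.105 and 0.132. The measure follows the genotype difference, and the log2 fold changes of the 5 genes lay between -2.06 (HIST2H3D) and -1.27 (TUBA1A). TUBA1A, an alpha-tubulin, had 206, 209.6 and 199 CPM in WT and 85.5, 84.0 and 86.4 CPM in KO. None of these 5 genes lies on chromosome 6 or 15. HIST2H3D lies on chromosome 1 and was near the floor, at 1.60 to 1.91 CPM in WT and 0.394 to 0.409 CPM in KO. A value of 0.5 CPM was added before taking logs, which weighs most on such low levels.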

How the data were processed

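Raw gene counts were deposited for each of the 12 libraries, one table per library in HTSeq layout by the authors; closing lines that name no gene (4.00 to 4.40% of listed reads without a feature in non-directional and 94.6% in directional libraries, among others) stayed out of library sizes and tests. The submitters' processing notes name Trim Galore 0.4.4, STAR 2.6.0a, SAMtools 1.9, Picard 2.23.8, HTSeq 0.11.1 and hg38, and the strand setting is not given in the sources used here. L1 locus tables were not used here. Groups and replicate numbers came from sample titles. All 58735 gene IDs matched GENCODE 29.

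Each kit was fitted alone with filterByExpr (minimum count 10, minimum total 15), TMM and edgeR 4.0.16 (quasi-likelihood test, under R 4.3.3). A gene can pass this filter through 1 genotype alone, which favours a call. In the non-directional kit PSMB9, HLA-G, MR1, HLA-DOB and PSMB8-AS1 did so through WT, and FCGRT through KO. P-values were adjusted after Benjamini-Hochberg over all genes tested, at a threshold of 0.05, and the code was tested on simulated data. Approximate SEs were taken from the size of each log2 estimate over the root of its F statistic. CPM used library gene totals, and length-scaled levels used merged exon lengths. A floor of 3 counts was 0.294 to 0.336 CPM in the non-directional libraries, and floors cover counting error only. Intervals rest on the approximate SEs, which also take in the fitted spread between these libraries. Genes were named as all members, up to 6 called genes of each list with the largest change plus fixed counterparts, opposite-strand partners and neighbours; other genes named were chosen after their values were seen. Members and lists were chosen with earlier results of these data known. Same-numbered libraries correlated by -0.036 to 0.016 (non-directional) and by -0.045 to 0.0038 (directional), so the numbers were not taken as pairs. Alternatives were DESeq2 1.42.0, its size factors in edgeR, no filter, a replicate block, each library left out, 1 fit over all 12, and, for the members, the 3 non-directional KO libraries summed. Some genes of the lists entered the fits and counts but are not reported here by name.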

Additional observations from a re-analysis of the deposited data

How the results depend on the processing

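All 163 gene-level values under an alternative (9 genes in the non-directional kit, 3 genes and 2 partners in the directional kit) had the sign reported, with 9, 2 and 2 calls in these 3 sets under each of the 11 alternatives per kit that gave calls. Of these values, 9 came from summing the 3 KO libraries of the non-directional kit and counting them as 1, which gives a value and no test. All non-directional values of the 9 genes come from the libraries on which these genes were chosen. Their signs and calls under the alternatives, left-out libraries included, are therefore a description and give no independent support. HLA-E ranged from -0.27 to -0.17 and PSMB8 from -3.65 to -3.50. The fit over all 12 libraries moved the median of all non-directional genes by -0.061, HLA-B to -1.25 and B2M to -0.92. The adjusted p of B2M in the directional kit lay between 2.5e-06 and 0.0015, that of TAP1 between 3.4e-08 and 0.00017 and that of TAPBP between 0.22 and 0.67. The directional table had 382 genes called by DESeq2 in place of 769. Of the 14 constitutive proteasome genes, 5 were called in the main result, 2 by DESeq2 and 3 without a filter; the 1 call for a higher level (PSMB7) was lost without a filter, without WT replicate 1, WT replicate 3, KO replicate 1 or KO replicate 2, in the fit over all 12 libraries and by DESeq2. A minimum absolute change of 1 on the log2 scale, chosen after seeing the data, left 1074 of 7089 non-directional genes.

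Leaving out 1 library gave 6394 to 7134 non-directional and 598 to 688 directional calls, 9, 2 and 2 for the members and partners, 12 to 16 for the rest of the route, 8 to 12 for the regulators and 3 to 7 for the constitutive proteasome, the last with 3 calls without WT replicate 1, WT replicate 3 or KO replicate 2. With the replicate number as a block 7074 non-directional and 712 directional genes were called, and no count for a list moved by over 1.5 times. The directional depth limits what can be said of the 6 members with 0 to 11 reads per library. The causes of these changes were not tested.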
